A study of Homo sapiens with 4 samples.

Results

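Levels of G0S2 and of 6 further genes of triglyceride lipolysis (PNPLA2, ABHD5, LIPE, MGLL, PLIN2 and PLIN3) were read from RNA-seq of UM-UC-3 cells, an established line from a human bladder cancer. The 7 genes were taken by name, with earlier results of these data known, from the 27629 genes listed in at least 1 of the 4 tables, and each was at 1 CPM or more in all 4 libraries (CPM, the reads of a gene scaled to a common library total). Control cells were given the control siRNA. The si-hnRNPK, si-lncRNA-LBCS and si-PTBP1 cells were each given a pool of 2 siRNAs against hnRNPK, lncRNA-LBCS or PTBP1. Each transfection used 75 nM siRNA, and the study's methods give 48 h before RNA extraction for the control and si-hnRNPK libraries. All 4 groups came from the same parental line, and each is 1 library, so the spread between cultures is unknown and no p-value is given for any change.

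Lipolysis removes the fatty acids of a stored triglyceride one after another at the surface of the lipid droplet. PNPLA2 (adipose triglyceride lipase) cuts the first, LIPE (hormone-sensitive lipase) mainly the next, and MGLL (monoglyceride lipase) the last. ABHD5 (CGI-58) is the coactivator of PNPLA2, and G0S2 is a small protein that binds PNPLA2 and inhibits it. PLIN2 and PLIN3 are perilipins, which coat the droplet; both are made in many cell types, while PLIN1 is the main coat protein of adipocytes. G0S2 was first described as a gene switched on when resting blood cells re-enter the cell cycle.

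G0S2 was the one gene of the set past a 2-fold change in all 3 comparisons with control, and it did not move in the same direction. It was 2.82-fold higher in si-hnRNPK, 4.67-fold lower in the si-lncRNA-LBCS-labelled library and 2.85-fold lower in si-PTBP1. MGLL was 2.51-fold lower in si-PTBP1. The 5 other genes stayed within 2-fold of control in every library, the lowest values being LIPE at 55.9% of control in si-hnRNPK and ABHD5 at 56.6% in the si-lncRNA-LBCS-labelled library.

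The siRNAs are shown because a short guide can also lower transcripts that match its seed (guide bases 2 to 8). They are written as the sense strand, with the 7 bases that a seed match in a transcript would share in capitals.
control siRNA: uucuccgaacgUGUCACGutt
lncRNA-LBCS siRNA-1: gcugcucauuuGUCUGAUctt
lncRNA-LBCS siRNA-2: ggugguagucaACACAAAutt
hnRNPK siRNA-1: ggguuguagagUGCAUAAatt
hnRNPK siRNA-2: gccuccaucuaGAAGAGAutt
PTBP1 siRNA-1: gccucaacgucAAGUACAatt
PTBP1 siRNA-2: cccucauugacCUGCACAatt
The 3' UTR of G0S2, 392 bases in GENCODE release 29, held no seed match to any of these 7 siRNAs. Those of PNPLA2 (711 bases), LIPE (305 bases), PLIN2 (478 bases) and PLIN3 (851 bases) held none either. Only the coding transcript with the longest 3' UTR of each gene was searched, on its own strand, and coding sequences were not.

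ABHD5, which has the longest 3' UTR of the 7 (4193 bases), held 5 matches, and MGLL (3136 bases) held 2. They are shown with 8 bases on either side, with the match in capitals.
ABHD5, lncRNA-LBCS siRNA-1: gatgtgttGTCTGATttctctac
ABHD5, lncRNA-LBCS siRNA-2: tttctcctACACAAAattgaaat
ABHD5, hnRNPK siRNA-1: caaggataTGCATAAaaagacaa
ABHD5, hnRNPK siRNA-2, the first of 2: aaagcacaGAAGAGAatgtatgg
MGLL, lncRNA-LBCS siRNA-2: agcaggccACACAAAgtccctac
MGLL, hnRNPK siRNA-2: tggcaggaGAAGAGAggcccagc
No member held a match to either PTBP1 siRNA. Among 11917 genes, the share of 3' UTRs with a match was 9.38% and 18.2% for the lncRNA-LBCS siRNAs, 10.98% and 19.7% for the hnRNPK siRNAs, and 13.1% and 15.0% for the PTBP1 siRNAs. A match is a description of the sequence, and its part in any change was not tested.

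G0S2 (ENSG00000123689) lies on the plus strand of chromosome 1 from 209675420 to 209676388 (GRCh38). It has 2 exons, 209675420 to 209675549 and 209675653 to 209676388, and its coding sequence of 103 codons lies within exon 2. The study's RT-qPCR primers for G0S2, aaggagatgatggcccagaag and gaaggggctgcacacagtctc, enclose 117 bases at 209675718 to 209675834, inside that coding sequence. By RT-qPCR the study reported more G0S2 mRNA after hnRNPK knockdown, in UM-UC-3 and in another bladder cancer line. Its western blots, with G0S2 among the proteins probed, were reported to follow the mRNA changes. The promoter is shown because hnRNPK is known to bind runs of C in single-stranded DNA and RNA, and because the study examined hnRNPK at this promoter by chromatin immunoprecipitation. It reported less hnRNPK and more RNA polymerase II there after hnRNPK knockdown. The study's G0S2 primers for that assay do not lie within the 250 bases printed next, which therefore need not be the fragment assayed. The 250 bases before the RefSeq start of G0S2 (GRCh38.p14, chr1:209675162-209675411, plus strand) are given with runs of 4 or more C in capitals.
G0S2 promoter: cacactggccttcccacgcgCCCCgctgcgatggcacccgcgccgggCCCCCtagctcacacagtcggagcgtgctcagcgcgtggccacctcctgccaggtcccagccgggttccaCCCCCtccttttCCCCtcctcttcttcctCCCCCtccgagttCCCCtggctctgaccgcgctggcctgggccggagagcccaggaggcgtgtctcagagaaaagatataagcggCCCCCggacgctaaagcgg

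The G0S2 window held 7 such runs on the strand of the gene and 0 runs of 4 or more G, and 42.4% of its bases were C. Of 35114 promoter windows of this length, 4.55% held as many C runs, 70.0% held at least 1, and 5.93% were as rich in C. PLIN2 followed with 5 runs and PLIN3 with 4, while PNPLA2 had 2, LIPE had 1 or 2 and ABHD5 had 0 to 2 in windows at alternative starts. That order holds for the strand of the gene only. Runs of 4 or more G, which are C runs on the other strand, numbered 6 in PNPLA2, 5 in PLIN2 and 6 in PLIN3. LIPE had 5 or 2 of them and ABHD5 had 2 in each window. The 8-base sequence CCCTCCCC, searched on both strands, was in 12.7% of all windows and in those of PLIN2 and PLIN3, but not in that of G0S2. Sequences of 6 of the 7 members were matched, and MGLL was not. These letters show neither binding nor a cause.

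The libraries held 54301152 to 70232674 reads on listed genes, and 3 reads corresponded to 0.0427 to 0.0552 CPM. HNRNPK was at 783.1 CPM in control, 187.8 in si-hnRNPK, 807.6 in the si-lncRNA-LBCS-labelled library and 656.1 in si-PTBP1, which is 24.0% of control in its own knockdown. PTBP1 was at 280.0, 253.3, 326.6 and 89.7 CPM in the same order, 32.0% of control in its own knockdown. The gene matched by both lncRNA-LBCS siRNAs, ENSG00000228412, had 110 reads in control and 103 in the si-lncRNA-LBCS-labelled library, a ratio of 0.818 (95% interval 0.619 to 1.08) that does not separate the pair. It was at 1.79 CPM in control, 3.43 in si-hnRNPK (186 reads), 1.47 in the labelled library and 3.82 in si-PTBP1 (214 reads), lowest in the library that carries its label. That library is therefore called the si-lncRNA-LBCS-labelled library, and each direction taken from it rests on the label alone. Of 7 adipocyte markers, the 2 or 3 with a value in a library (among PLIN1, FABP4 and CIDEA) were below 1 CPM. They summed to 0.0427 to 0.482 CPM, and ADIPOQ, LEP, CIDEC and LPL had no value in any library. Of 8 leukocyte markers, only CD14 and ITGAM had values, which summed to 0.342 to 2.80 CPM, and ITGAM reached 1 CPM in si-hnRNPK alone (2.78 CPM). Of 19 urothelial markers, 15 or 16 had a value in a library, only KRT8 and KRT18 of these were at 10 CPM or more, UPK1A, UPK1B, UPK2 and GATA3 were below 1 CPM in every library, and all 6 mesenchymal markers (VIM, CDH2, ZEB1, ZEB2, FN1 and SPARC) were at 10 CPM or more. The urothelial list summed to 157.8 to 220.9 CPM, and 5 or 6 of its genes reached 1 CPM in a library of this bladder cancer line.

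Changes are differences in log2(CPM + 1) between a knockdown library and the control library, which shrinks the changes of genes at low levels. A gene counted as changed when the difference was at least 1 (2-fold) and it reached 1 CPM in at least 1 of both libraries. Intervals are 95% exact intervals from the reads (Poisson for a level, Clopper-Pearson for a ratio) and cover counting error only. Because G0S2 and the other members come from bulk RNA, fewer cells making a transcript and less RNA per cell cannot be told apart. All 3 comparisons share the control library. Scaling by the median of ratios put the si-hnRNPK library at -0.11 and the si-PTBP1 library at 0.13 relative to control on the log2 scale, beside median changes over all genes of -0.11 and 0.12, and the si-lncRNA-LBCS-labelled library at -0.01. Every direction given below for a member held under that scaling, other than that of MGLL in si-hnRNPK.

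G0S2 had 787 reads in control (12.8 CPM, 11.9 to 13.8) and 1967 reads in si-hnRNPK (36.2 CPM, 34.6 to 37.9). It had 193 reads in the si-lncRNA-LBCS-labelled library (2.75 CPM, 2.37 to 3.16) and 252 reads in si-PTBP1 (4.49 CPM, 3.96 to 5.09). The si-hnRNPK library was the highest and the si-lncRNA-LBCS-labelled library the lowest, and none of the 4 counting intervals overlapped.

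**Figure D1:**
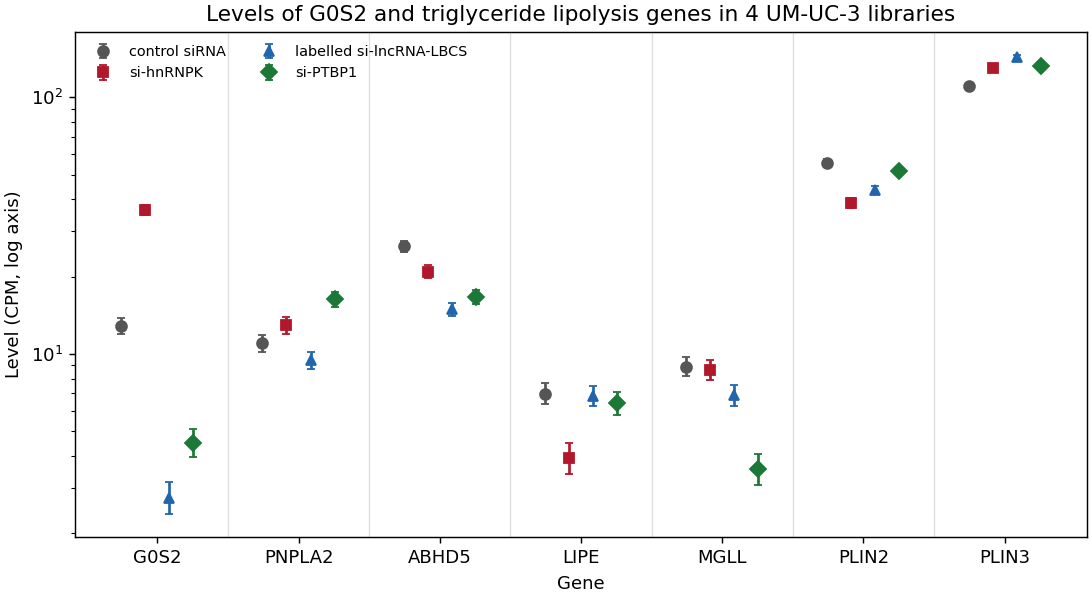
Level of each of the 7 genes (x axis) in the 4 libraries, in CPM on a log axis, with 1 point per library and bars for the 95% Poisson interval of its reads. G0S2 spans 2.75 to 36.2 CPM, while PLIN3 stays between 110.3 and 143.2 CPM.

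In si-hnRNPK the change of G0S2 was 1.43 (interval 1.32 to 1.54), a ratio of 2.82 (2.60 to 3.07). Of the 13672 genes tested, 166 (1.21%) had a larger positive change. In that comparison 7.48% of genes passed the threshold, 486 (3.55%) higher and 537 (3.93%) lower, and of the 7 members 1 was higher and 0 were lower. Median-of-ratios scaling put the split at 610 higher and 374 lower, with G0S2 still the 1 member called.

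In the si-lncRNA-LBCS-labelled library the change of G0S2 was -1.88 (-2.06 to -1.70), which left 21.4% of control. Only 9 of 13492 genes (0.0667%) had a more negative change. Here 1.39% of genes passed the threshold, 51 (0.378%) higher and 136 (1.01%) lower, and G0S2 was the 1 member called. In si-PTBP1 the change of G0S2 was -1.33 (-1.51 to -1.16), which left 35.1% of control, and 35 of 13855 genes (0.253%) had a more negative one. In that library 3.53% of genes passed the threshold, 404 (2.92%) higher and 85 (0.613%) lower (256 and 132 with median-of-ratios scaling), and G0S2 and MGLL were the 2 members called, both lower. The G0S2 falls thus stand in sparser tails than its rise.

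G0S2 was 1.64-fold higher in si-PTBP1 than in the si-lncRNA-LBCS-labelled library (1.35 to 1.98), a difference beyond counting error. Between si-hnRNPK and the si-lncRNA-LBCS-labelled library, G0S2 differed 13.2-fold (11.4 to 15.4), and between si-hnRNPK and si-PTBP1 8.06-fold (7.07 to 9.23). The range of G0S2 over the 4 libraries was 3.31 on the log2(CPM + 1) scale. Of 14150 genes, 30 (0.212%) had a wider range, and the median range was 0.58.

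**Figure D2:**
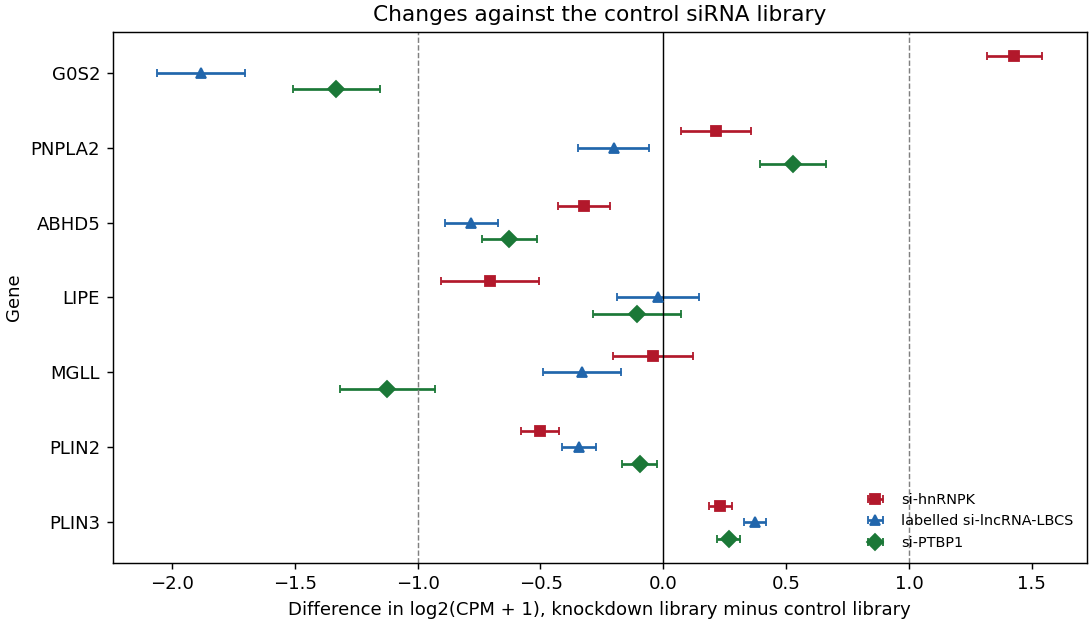
Difference in log2(CPM + 1) between each knockdown library and the control library (x axis) for the 7 genes (y axis), with bars for the 95% Clopper-Pearson interval of the reads and dashed lines at the threshold of 1. G0S2 lies at 1.43, -1.88 and -1.33, and MGLL at -1.12 in si-PTBP1 is the other point past a line.

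PNPLA2 (ENSG00000177666, chromosome 11, 818902 to 825573, plus strand), the lipase that G0S2 inhibits, was at 10.98 CPM in control, 12.9 in si-hnRNPK, 9.41 in the si-lncRNA-LBCS-labelled library and 16.3 in si-PTBP1. Its changes were 0.21 (0.07 to 0.36), -0.20 (-0.35 to -0.06) and 0.53 (0.39 to 0.66), all within 2-fold. The highest level was that of si-PTBP1 (15.2 to 17.4), and the counting intervals of the other 3 lay side by side without overlap, from 8.71 to 13.9 CPM. An antisense gene, AP006621.1, shares 401 exon bases with PNPLA2 (10.4% of its exon bases) and had 17 to 37 reads a library, against 661 to 913 for PNPLA2.

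The ratio of G0S2 to PNPLA2 reads within a library does not depend on how libraries are scaled. It was 1.17 in control (1.05 to 1.30), 2.81 in si-hnRNPK (2.58 to 3.07), 0.292 in the si-lncRNA-LBCS-labelled library (0.247 to 0.343) and 0.276 in si-PTBP1 (0.239 to 0.318). The inhibitor transcript, relative to its lipase, was thus above control in si-hnRNPK and below it in both other knockdowns. The intervals of the latter knockdowns overlapped each other. Gene length does not enter these read ratios. Per kilobase of annotated exon they were 5.18, 12.5, 1.30 and 1.22 in the same order.

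ABHD5 (ENSG00000011198, chromosome 3, 43690108 to 43734371, plus strand), the coactivator, was at 26.3 CPM in control, 20.8 in si-hnRNPK, 14.9 in the si-lncRNA-LBCS-labelled library and 16.7 in si-PTBP1. Its changes were -0.32 (-0.43 to -0.22), -0.78 (-0.89 to -0.67) and -0.63 (-0.74 to -0.52). The control library held the highest level, the counting intervals of the 2 lowest libraries overlapped, and none of the 3 changes passed the threshold. In the si-lncRNA-LBCS-labelled library 331 genes (2.45%), and in si-PTBP1 359 genes (2.59%), had a more negative change than ABHD5. The siRNAs of the first of these libraries and those of si-hnRNPK have matches in the ABHD5 3' UTR, shown above, and those of si-PTBP1 have none there. The role of these matches in the changes was not tested. ABHD5 shares 170 exon bases (2.25%) with ANO10 on the other strand, which had 1555 to 1863 reads a library.

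ABHD5 and G0S2 act on PNPLA2 in opposite ways, and ABHD5 reads per G0S2 read were 2.05 in control (1.88 to 2.24), 0.575 in si-hnRNPK (0.534 to 0.619), 5.41 in the si-lncRNA-LBCS-labelled library (4.64 to 6.35) and 3.71 in si-PTBP1 (3.23 to 4.28). No pair of libraries overlapped. ABHD5 reads per PNPLA2 read were 2.39, 1.62, 1.58 and 1.02 in the same order, highest in control and lowest in si-PTBP1. These are ratios of reads from genes of unlike length, so they compare libraries and not the levels of the genes. Per kilobase of annotated exon, ABHD5 per G0S2 was 0.235 in control, 0.0660 in si-hnRNPK, 0.621 in the si-lncRNA-LBCS-labelled library and 0.426 in si-PTBP1. Protein was not measured in these libraries.

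**Figure D3:**
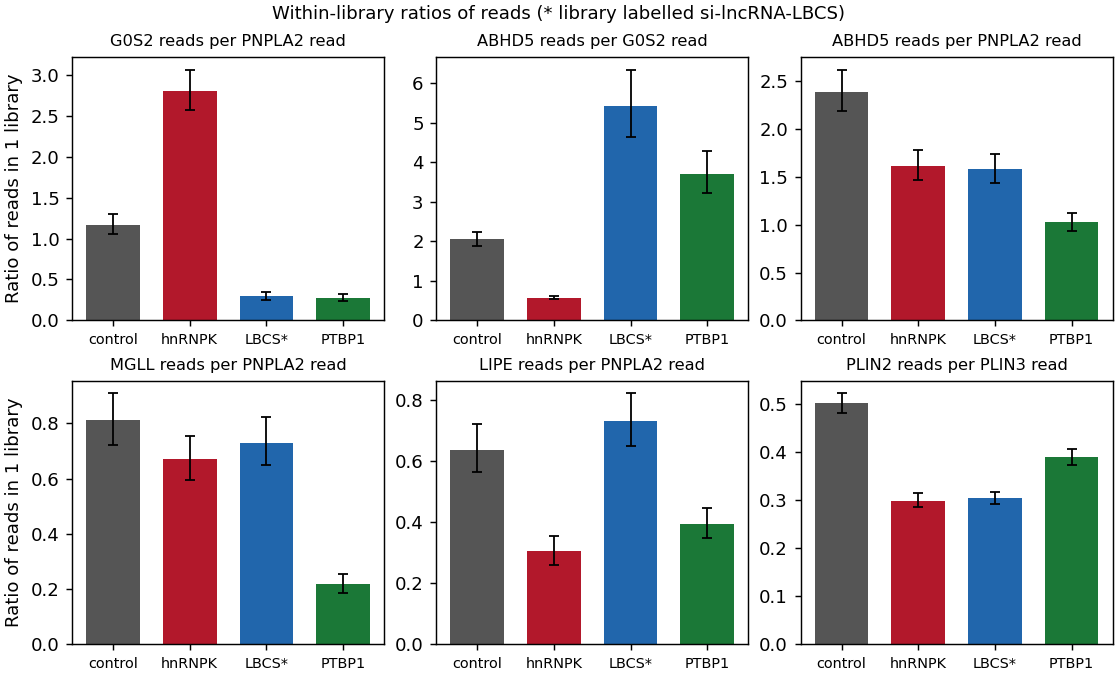
Ratios of the reads of 2 genes within each of the 4 libraries (y axes, each from 0), with bars for the 95% Clopper-Pearson interval. G0S2 reads per PNPLA2 read run from 0.276 in si-PTBP1 to 2.81 in si-hnRNPK, and MGLL reads per PNPLA2 read are lowest in si-PTBP1, at 0.218.

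LIPE (ENSG00000079435, chromosome 19, 42401507 to 42427426, minus strand), the diglyceride lipase, was at 6.99 CPM in control, 3.90 in si-hnRNPK, 6.86 in the si-lncRNA-LBCS-labelled library and 6.42 in si-PTBP1. Its change in si-hnRNPK was -0.70 (-0.90 to -0.50), on 429 and 212 reads, which is 55.9% of control and short of the threshold. In the others it was -0.02 (-0.19 to 0.14) and -0.11 (-0.29 to 0.07), intervals that include 0. The si-hnRNPK library stood below the other 3, whose counting intervals overlapped. The antisense gene LIPE-AS1, which shares 500 exon bases with LIPE (9.60%), had 10 reads in control, 50 in si-hnRNPK, 14 in the si-lncRNA-LBCS-labelled library and 21 in si-PTBP1. Whether counting used the strand is not given in the sources used here, so reads in the shared bases cannot be assigned.

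MGLL (ENSG00000074416, chromosome 3, 127689062 to 128052190, minus strand), the monoglyceride lipase, was at 8.91 CPM in control, 8.64 in si-hnRNPK, 6.88 in the si-lncRNA-LBCS-labelled library and 3.55 in si-PTBP1. Its change in si-PTBP1 was -1.12 (-1.32 to -0.93), on 547 and 199 reads, so that counting error alone spans the threshold. Of the 13855 genes tested, 57 (0.411%) had a more negative change. The changes in the other libraries were -0.04 (-0.20 to 0.12) in si-hnRNPK, a sign that turned under median-of-ratios scaling, and -0.33 (-0.49 to -0.17) in the si-lncRNA-LBCS-labelled library. The si-PTBP1 library was the lowest, with a counting interval (3.07 to 4.08 CPM) below those of the other 3. The PTBP1 siRNAs had no seed match in the MGLL 3' UTR, the only part searched, and the role of seed matches was not tested. Against the geometric mean of the other 3 libraries the change of MGLL in si-PTBP1 was -0.9995, just short of the threshold.

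MGLL reads per PNPLA2 read were 0.812 in control, 0.670 in si-hnRNPK, 0.731 in the si-lncRNA-LBCS-labelled library and 0.218 in si-PTBP1. LIPE reads per PNPLA2 read were 0.636, 0.303, 0.729 and 0.394 in that order. The transcripts of the lipases for the later steps were thus lowest relative to that of the first lipase in different libraries. That was si-PTBP1 for MGLL and, by value, si-hnRNPK for LIPE. The LIPE interval in si-hnRNPK (0.258 to 0.354) overlapped that in si-PTBP1 (0.348 to 0.446).

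PLIN2 (ENSG00000147872, chromosome 9, 19108375 to 19149290, minus strand), whose protein is stable only on lipid droplets, was at 55.3 CPM in control, 38.8 in si-hnRNPK, 43.5 in the si-lncRNA-LBCS-labelled library and 51.7 in si-PTBP1. Its changes were -0.50 (-0.58 to -0.42), -0.34 (-0.41 to -0.27) and -0.10 (-0.17 to -0.03). PLIN3 (ENSG00000105355, chromosome 19, 4838341 to 4867768, minus strand), which moves between cytosol and nascent droplets, was at 110.3, 129.7, 143.2 and 132.8 CPM in the same order. Its changes were 0.23 (0.18 to 0.28), 0.37 (0.33 to 0.42) and 0.27 (0.22 to 0.31). Control was the highest library for PLIN2 and the lowest for PLIN3, and no change of either coat gene passed the threshold. PLIN2 reads per PLIN3 read were 0.502 in control (0.481 to 0.523), 0.299 in si-hnRNPK (0.285 to 0.314), 0.303 in the si-lncRNA-LBCS-labelled library (0.291 to 0.316) and 0.389 in si-PTBP1 (0.373 to 0.406).

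The 6 genes other than G0S2 had a median change of -0.18 in si-hnRNPK, -0.27 in the si-lncRNA-LBCS-labelled library and -0.10 in si-PTBP1, where the medians over all tested genes were -0.11, -0.01 and 0.12. Of these genes, 2, 1 and 2 had a positive change. The range over the 4 libraries was 2.51-fold for MGLL, 1.79-fold for LIPE, 1.77-fold for ABHD5, 1.73-fold for PNPLA2, 1.43-fold for PLIN2 and 1.30-fold for PLIN3. Of 14150 genes, 10.4% had a wider log2 range than MGLL and 76.8% a wider one than PLIN3.

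**Figure D4:**
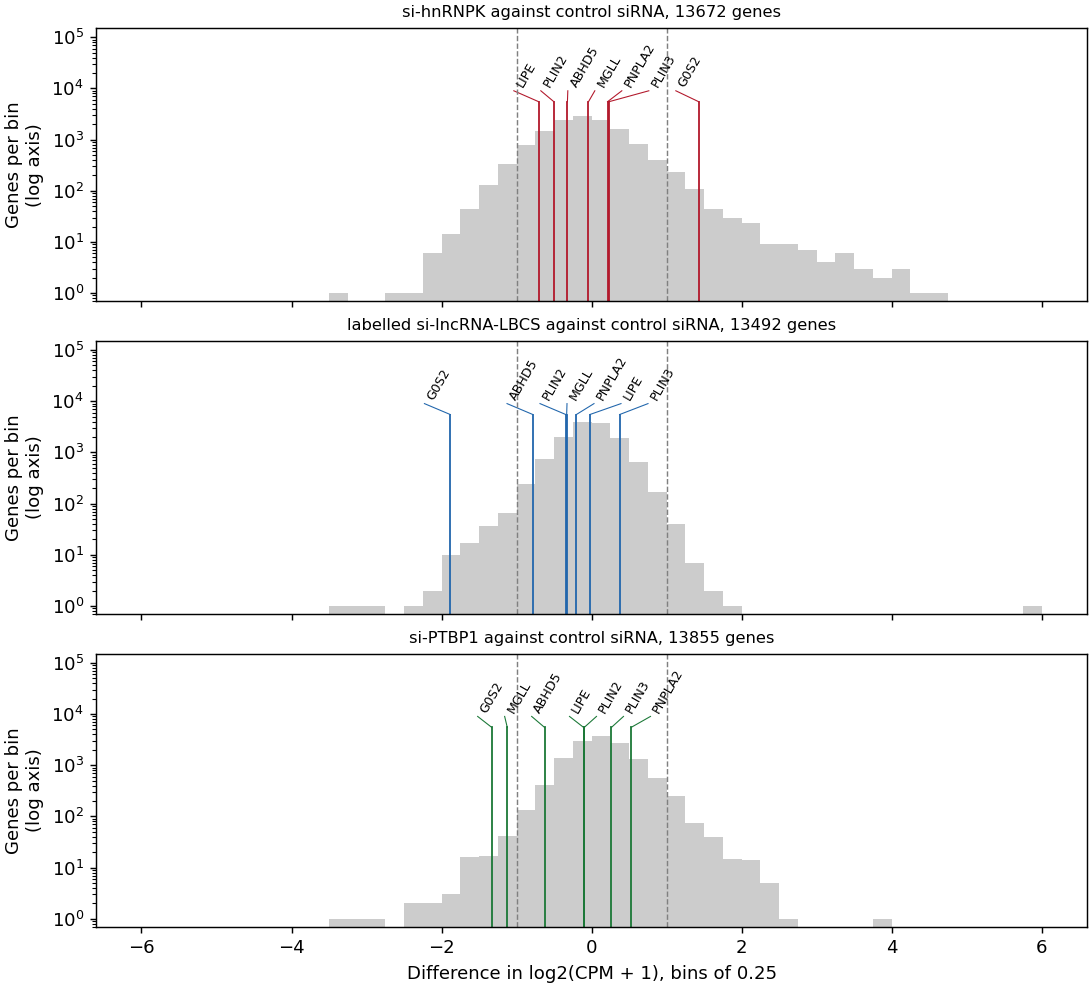
Number of genes (y axis, log scale) by difference in log2(CPM + 1) from control, in bins of 0.25, for each knockdown library, with changes past 6 placed in the end bins, coloured lines for the 7 genes and dashed lines at the threshold of 1. In the si-lncRNA-LBCS-labelled library, G0S2 at -1.88 lies beyond all but 9 of 13492 genes, while in si-hnRNPK 166 of 13672 genes lie beyond it.

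Levels of different genes were compared as CPM per kilobase of annotated exon. In control PLIN3 was at 39.2, G0S2 at 14.8, PLIN2 at 10.9, ABHD5 at 3.48, PNPLA2 at 2.86, LIPE at 1.34 and MGLL at 0.752. With the length of the longest coding transcript in place of all exons, PLIN2 (28.1) stood above G0S2 (14.8), so these neighbours have no settled order. In si-hnRNPK G0S2 was at 41.8 CPM per kilobase, second to PLIN3 (46.1) with either length. In the si-lncRNA-LBCS-labelled library it was at 3.17, near PNPLA2 (2.45, or 3.88 by the longest coding transcript), and in si-PTBP1 at 5.19, near PNPLA2 again (4.24, or 6.71).

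The genes that overlap or adjoin G0S2 were examined for the same pattern. AL031316.1, a long antisense gene with no exon base in G0S2, had 16, 6, 0 and 1 reads in control, si-hnRNPK, the si-lncRNA-LBCS-labelled library and si-PTBP1. LAMB3, a laminin subunit gene 22954 bases away, was at 31.7, 43.8, 16.9 and 29.1 CPM, with changes of 0.46, -0.87 and -0.12. LAMB3 was, like G0S2, highest in si-hnRNPK and lowest in the si-lncRNA-LBCS-labelled library, but no change passed the threshold. HSD11B1, the next coding gene on the other side, had no value in any library.

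The 5 genes with the profile most like that of G0S2 were CXCL8, HMOX1, CCL2, CLDN1 and NLRP3, by the root mean square distance between log2(CPM + 1) values centred on each gene's mean over the 4 libraries. The distances were 0.289, 0.330, 0.355, 0.366 and 0.380, and the median distance over 13693 genes was 1.35. CXCL8, a chemokine that attracts neutrophils, was at 37.2 CPM in control, 147.6 in si-hnRNPK, 16.6 in the si-lncRNA-LBCS-labelled library and 22.3 in si-PTBP1. HMOX1, which breaks down haem, was at 47.7, 167.6, 12.5 and 33.1 CPM. CCL2, a chemokine for monocytes, was at 68.9, 320.4, 16.1 and 28.3 CPM. CLDN1, a tight junction protein, was at 4.09, 23.1, 1.45 and 2.75 CPM, and NLRP3, an inflammasome sensor, at 16.3, 27.5, 4.68 and 4.08 CPM. With 4 libraries the likeness is a description of these values.

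Genes of lipid metabolism beyond the 7 were taken from 7 lists that hold 139 genes. In si-hnRNPK 106 of them could be tested, of which 3 (2.83%) were higher and 3 (2.83%) lower past the threshold. In the si-lncRNA-LBCS-labelled library 105 were tested, with 0 higher and 2 (1.90%) lower. In si-PTBP1 108 were tested, with 4 (3.70%) higher and 1 (0.926%) lower. These shares lie near those of all genes, 3.55% and 3.93%, 0.378% and 1.01%, and 2.92% and 0.613%.

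Of 15 tested regulators of lipolysis, DDHD2 was higher in si-hnRNPK and in si-PTBP1, and PRKACA was lower in si-hnRNPK. DDHD2, a triglyceride lipase of neurons, was at 49.3 CPM in control, 103.7 in si-hnRNPK, 97.2 in the si-lncRNA-LBCS-labelled library and 113.1 in si-PTBP1, changes of 1.06, 0.97 and 1.18. PRKACA, a catalytic subunit of protein kinase A, which phosphorylates LIPE and perilipins, was at 9.25, 3.77, 5.79 and 11.1 CPM, a change of -1.10 in si-hnRNPK. HILPDA, another inhibitor of PNPLA2, was at 15.7, 15.5, 17.1 and 12.5 CPM, so the second inhibitor transcript stayed within 2-fold where G0S2 did not. PNPLA3, a relative of PNPLA2, was at 3.57, 2.71, 3.004 and 4.23 CPM.

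Of the other coat and droplet fusion genes, PLIN4 was at 0.912, 0.405, 0.484 and 1.64 CPM and CIDEA at 0.0652, 0.0737, 0.0142 and 0.339 CPM. PLIN1 was at 0.0285 CPM in the si-lncRNA-LBCS-labelled library and 0.0713 in si-PTBP1, and PLIN5, CIDEB and CIDEC had no value in any library. Of these, PLIN4 alone reached 1 CPM, in si-PTBP1. Of 13 or 14 tested droplet genes, HSD17B7, a sterol synthesis enzyme found on droplets, was lower in si-hnRNPK (12.0 to 4.82 CPM, -1.16), and METTL7A was higher in si-PTBP1 (1.03 to 3.55 CPM, 1.17).

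Among 16 or 17 tested genes of triglyceride synthesis, GPAT3, which adds the first fatty acid to glycerol 3-phosphate, was lower in si-hnRNPK, at 25.6, 10.6, 35.5 and 48.0 CPM, changes of -1.20, 0.45 and 0.88. Of 14 tested genes of fatty acid uptake and handling, VLDLR, a receptor for triglyceride-rich lipoproteins, was lower in si-PTBP1, at 22.2, 11.5, 12.6 and 9.72 CPM, changes of -0.89, -0.76 and -1.11. Of 14 genes of fatty acid synthesis, ELOVL7 was higher in si-hnRNPK (1.48 to 4.27 CPM, 1.09), and of 21 genes of fatty acid oxidation none passed the threshold in any library. Their median changes were -0.17, 0.06 and 0.20, where those over 13250 genes with a mean of 1 CPM or more were -0.10, -0.01 and 0.12.

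Of 15 or 16 tested PPAR regulators and target genes, PPARA, a receptor that fatty acids released by PNPLA2 activate, was at 10.1, 15.1, 4.23 and 24.9 CPM, changes of 0.54, -1.08 and 1.23. PPARD was at 14.8, 9.96, 6.59 and 12.2 CPM, a change of -1.06 in the si-lncRNA-LBCS-labelled library. PPARGC1A, a coactivator of PPAR receptors, was higher in si-PTBP1 at a low level (0.147 to 1.62 CPM, 1.19). PPARA thus passed the threshold in opposite directions in the 2 libraries in which G0S2 was lower. METTL7A, ELOVL7 and PPARGC1A were below 5 CPM in all libraries and are named after their values were seen.

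**Figure D5:**
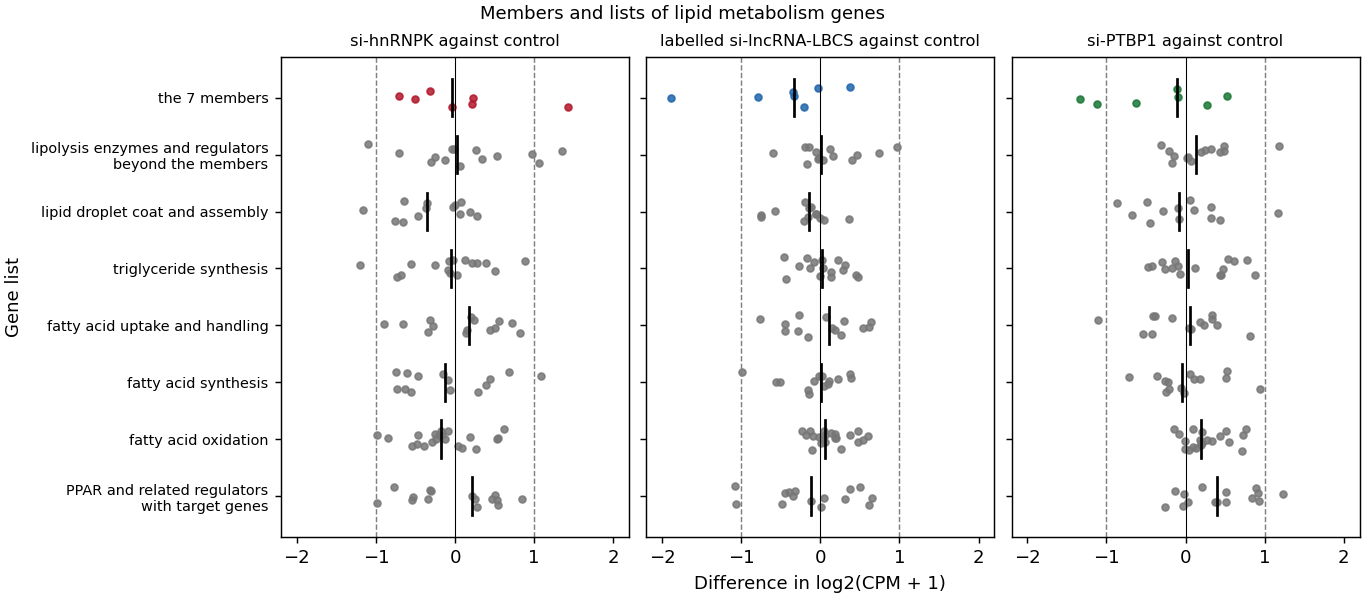
Difference in log2(CPM + 1) from control (x axis) for the 7 genes and for the lists of lipid genes (y axis) with a mean of 1 CPM or more, with 1 point per gene, bars at the list medians and dashed lines at the threshold of 1. G0S2 lies outside the range of each list in every comparison, at 1.43 in si-hnRNPK, -1.88 in the si-lncRNA-LBCS-labelled library and -1.33 in si-PTBP1.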

How the data were processed

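Total RNA of UM-UC-3 cells was sequenced as 100-base paired-end reads, 1 library per condition. For each library the authors deposited CPM, read counts scaled to a common total, with Ensembl identifiers, on genome build hg19 according to the submitters' processing notes. The aligner and counting method are not given in the sources used here. Values were whole multiples of 1 read for 100% of genes with reads, within 0.01 reads, so reads were recovered. Genes without reads carry a placeholder, set to 0.

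Changes are differences in log2(CPM + 1) for genes reaching 1 CPM in either library. The threshold was 1, and no gene was tested against replicate error. Calling instead the genes with an adjusted p at or below 0.05 in an exact binomial test of the recovered reads (Benjamini-Hochberg) gave 10894 genes in si-hnRNPK, 9513 in the si-lncRNA-LBCS-labelled library and 10222 in si-PTBP1, a comparison of libraries, not conditions. Other alternatives were a pseudocount of 0.1, the geometric mean of the other 3 libraries as reference, median-of-ratios scaling, no filter, a filter of 5 CPM and a 1.5-fold threshold.

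Positions and 3' UTRs are from GENCODE release 29 (GRCh38), joined by identifier. Promoters are from RefSeq (GRCh38.p14). Symbols matched 25647 of 27629 identifiers. The members and gene lists were chosen with earlier results of these data known. Named are the members, targeted genes, overlapping and adjoining genes, the 5 genes most like G0S2, list genes past the threshold at 5 CPM or more, and HILPDA, PNPLA3, PLIN and CIDE genes. One item that this rule would name is not reported here. Scripts were tested on simulated data. Software was pandas 2.3.3, numpy 2.4.6, scipy 1.17.1 and statsmodels 0.14.6 in Python 3.11.15, with figures by matplotlib 3.10.9.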

Additional observations from a re-analysis of the deposited data

How the results depend on the processing

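G0S2 kept its direction and stayed past the threshold under each alternative in all 3 comparisons. Its change was 2.50 in si-hnRNPK against the geometric mean of the other 3 libraries, and -2.18 in the si-lncRNA-LBCS-labelled library with a pseudocount of 0.1. The geometric mean behind the 2.50 includes both libraries in which G0S2 was below control. Against the geometric mean, the median of the other 6 members was 0.062 in si-hnRNPK, -0.043 in the si-lncRNA-LBCS-labelled library and 0.10 in si-PTBP1, and MGLL was no longer called in si-PTBP1, which left 1 member called there. Of 54 values of the other members under another pseudocount, scaling or reference, 47 kept their direction and 7 did not. The exceptions, all with the geometric mean as reference, were MGLL in si-hnRNPK (under median-of-ratios scaling as well), ABHD5 in si-hnRNPK, LIPE and MGLL in the si-lncRNA-LBCS-labelled library and LIPE and PLIN2 in si-PTBP1. A 1.5-fold threshold called 2 members in si-hnRNPK (LIPE added), 2 in the si-lncRNA-LBCS-labelled library (ABHD5 added) and 3 in si-PTBP1 (ABHD5 added). Of all genes, the 1.5-fold threshold called 9.89% higher and 15.8% lower in si-hnRNPK. The shares were 4.14% and 5.74% in the si-lncRNA-LBCS-labelled library, and 12.1% and 3.12% in si-PTBP1. The binomial test called 6 of 7 members in each comparison, where it also called most genes. Its shares of all genes were 32.1% higher and 47.6% lower in si-hnRNPK. They were 33.9% and 36.6% in the si-lncRNA-LBCS-labelled library, and 48.9% and 24.8% in si-PTBP1.

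Over all genes, the count past the threshold in si-hnRNPK (1023) became 1785 with a pseudocount of 0.1, 675 against the geometric mean, 3517 at 1.5-fold and 10894 with the binomial test. In the si-lncRNA-LBCS-labelled library (187) it became 518, 110, 1333 and 9513, and in si-PTBP1 (489) 966, 308, 2105 and 10222. Median-of-ratios scaling moved the calls from 486 higher and 537 lower to 610 and 374 in si-hnRNPK, and from 404 and 85 to 256 and 132 in si-PTBP1. The length of the longest coding transcript, chosen after seeing the data, changed the order of G0S2 and PLIN2 in control. No paired analysis was possible because each group is 1 library, and no library could be left out. The spread between cultures is not known for any value.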
